A study of Homo sapiens with 20 samples.

Results

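The genes described here are 7 stress-responsive members of the basic leucine zipper (bZIP) family of transcription factors, namely ATF3, ATF4, ATF5, DDIT3, CEBPB, CEBPG and JDP2. They were chosen by gene symbol from the 39918 Ensembl genes of the deposited table, and all 7 passed the filter on low counts. Total RNA depleted of ribosomal RNA was sequenced from HCT-116, an established human colorectal cancer cell line, in 20 libraries that formed 5 groups of 4. The asynchronous cells were neither synchronised nor treated. The other 4 groups shared a block with 2 mM thymidine for 16 h, which stalls DNA replication, and a release of 7 h. The G2 group was collected at that point, with no drug. The MG132 group then received 20 µM of MG132 for 3 h, and the bortezomib group 100 nM of bortezomib for 3 h; both agents inhibit the proteasome, the protease complex that degrades ubiquitin-tagged proteins. The last group received 20 µM MG132 together with 50 µg/ml α-amanitin, an inhibitor of RNA polymerase II, for 3 h. Every comparison of a drug group with G2 therefore holds 3 h of cell cycle time as well as the drug, and a vehicle group at 3 h was not analysed here. The labels do not say that replicates were separate cultures, so the tests rest on the spread between libraries of a group, and that spread may be technical.

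ATF4 is the central effector of the integrated stress response, in which phosphorylation of the translation initiation factor eIF2α lowers general protein synthesis while translation of the ATF4 mRNA rises. ATF4 protein pairs with C/EBP proteins and binds composite C/EBP-ATF response elements at genes for amino acid supply, and it also switches on further bZIP factors, among them ATF3 and DDIT3, whose product CHOP is tied to cell death under lasting stress. ATF4 protein is itself degraded by the proteasome, so its mRNA level, measured here, does not report its protein level.

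Library totals ranged from 26797395 to 39710457 counts. In asynchronous replicate 1 and G2 replicate 1, 67.6% and 68.3% of the counts were in protein-coding genes, against 75.5% to 82.2% in the other libraries. Each library was also left out in turn. The summed level of 10 epithelial markers was 3317 to 6107 CPM, which are counts brought to the same library size, over the 20 libraries, with EPCAM and KRT8 present in each. KRT20, also present in each, was far lower at 0.677 to 7.04 CPM. It was higher in G2 than in asynchronous cells (log2 fold change 1.84, edgeR adjusted p = 0.0153). Of 10 fibroblast markers only COL1A1 passed the filter, and the list's sum was 3.23 to 4.27 CPM in asynchronous, 6.32 to 10.7 in G2, 5.69 to 11.8 in MG132, 5.59 to 9.34 in bortezomib and 8.51 to 13.0 in MG132 with α-amanitin. The 10 leukocyte markers summed to 0.261 to 3.02 CPM, highest in MG132 with α-amanitin (1.08 to 3.02). Of these only ITGAM passed the filter, at 0.0941 to 0.686 CPM, and CD79A reached 1.4 CPM. The fibroblast and leukocyte genes DCN and PTPRC stood at or below 0.0784 and 0.148 CPM, while COL1A1 held 3.17 to 12.4 CPM. The part of these transcripts in the results was not tested. In 4 libraries the level of genes followed their GC content by over 0.3 log2 units per 10 percentage points of GC: asynchronous replicate 3 (0.504), G2 replicate 2 (0.361), MG132 replicate 2 (-0.406) and MG132 replicate 4 (0.737). Without these 4 libraries ATF3 and DDIT3 were still called with MG132 (4.17 and 2.94, adjusted p = 4.04e-05 and 0.00418), with bortezomib (2.96 and 2.49, adjusted p = 0.000672 and 0.00705) and with α-amanitin against MG132 (-2.56 and -2.30, adjusted p = 0.00128 and 0.00822). The values of ATF4, CEBPG, CEBPB and JDP2 without them stand with those genes.

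Levels of different genes were compared only per length, as CPM divided by kilobases of annotated exon. In the G2 group ATF4 stood highest of the 7 at 94.5 ± 6.98 CPM per kb (SD, n = 4), and CEBPG followed at 11.2 ± 0.566. CEBPB (5.91 ± 1.28), ATF5 (5.71 ± 1.22), DDIT3 (5.03 ± 1.31) and ATF3 (3.58 ± 1.08) followed, and each overlapped its neighbour in the order over the 4 libraries. JDP2 was lowest at 0.815 ± 0.133, below every library of ATF3. With MG132 the order was different. ATF4 remained highest at 175 ± 33.3 CPM per kb, ATF3 was next at 68.1 ± 15.6 and above every library of DDIT3 (44.8 ± 7.14), which overlapped CEBPG (21.9 ± 12.5). ATF5 (4.08 ± 1.09) and JDP2 (1.72 ± 0.246) were the lowest. With bortezomib DDIT3 (30.8 ± 11.2 CPM per kb) and ATF3 (28.1 ± 6.39) overlapped, and both lay below every ATF4 library.

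**Figure D1:**
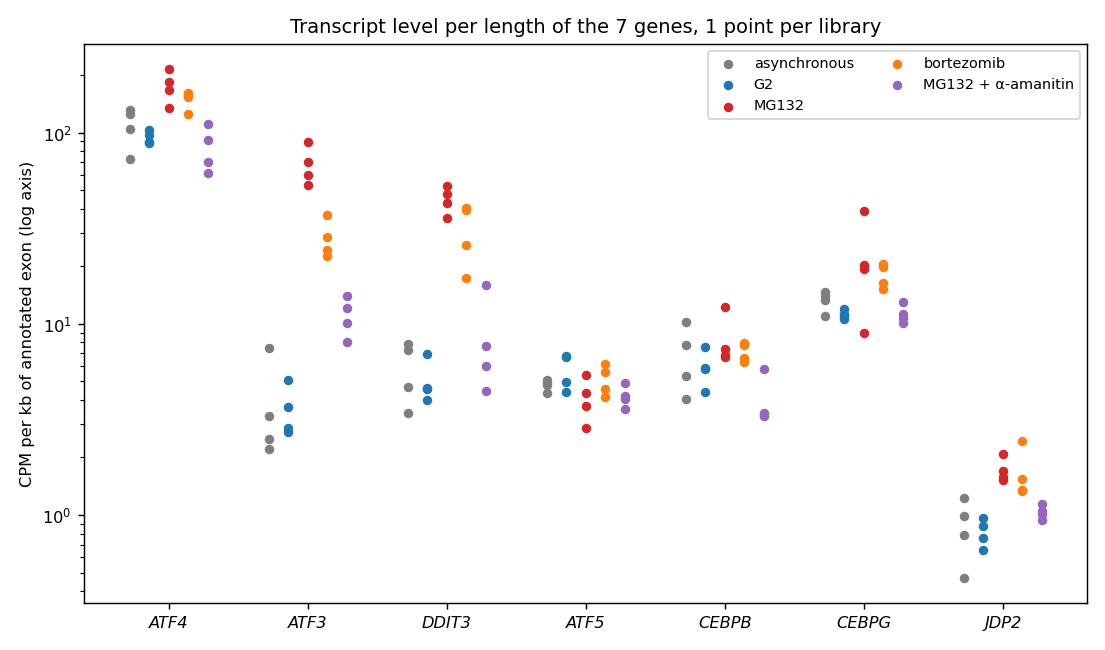
CPM per kb of annotated exon (log axis) of the 7 genes, with 1 point per library and 1 colour per group. ATF4 is the highest gene in all groups, and ATF3 moves from 3.58 CPM per kb in G2 to 68.1 with MG132.

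The regions before the start sites were searched for the elements these factors are known to bind, because 4 of the 7 genes were called higher with MG132. Windows were at hand for 16 RefSeq start sites of the 7 genes, and each ran from 250 bases before to 50 bases after the start (GRCh38.p14). A further annotated start of ATF3, between its upstream and downstream windows, had no window and was not searched. The C/EBP-ATF response element, searched as TGATGNAA on both strands, was found in windows of ATF3, CEBPG and JDP2. It is held by 3.62% of all 35116 RefSeq windows and by 4.46% of the 27305 genes with a window. In CEBPG and JDP2 the letters are the exact TGATGCAA, which 0.866% of windows hold. Their first letter lies 42 and 16 bases before the starts at 33374113 and 75428022. Both of these starts lie inside the annotated gene, downstream of another start. The windows of the other starts, at 33373709 for CEBPG and at 75427724 and 75428357 for JDP2, held none of the searched elements. The window of ATF3 belongs to its upstream start and holds TGATGGAA, 191 bases before it. The stretches before these starts that lie outside annotated exons are printed 5′ to 3′ on the plus strand, with the element in capitals, as the members in which it was found. Those of CEBPG and JDP2 lie within the annotated gene.
CEBPG, chr19:33373896-33374112: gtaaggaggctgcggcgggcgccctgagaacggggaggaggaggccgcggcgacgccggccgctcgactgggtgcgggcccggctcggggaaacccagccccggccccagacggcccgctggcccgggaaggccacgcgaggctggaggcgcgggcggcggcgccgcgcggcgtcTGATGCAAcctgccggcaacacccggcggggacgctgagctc
JDP2, chr14:75427850-75428021: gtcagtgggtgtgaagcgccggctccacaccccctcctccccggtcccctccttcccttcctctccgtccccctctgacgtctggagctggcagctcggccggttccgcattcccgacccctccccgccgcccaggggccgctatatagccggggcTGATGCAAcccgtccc
ATF3, chr1:212565157-212565333: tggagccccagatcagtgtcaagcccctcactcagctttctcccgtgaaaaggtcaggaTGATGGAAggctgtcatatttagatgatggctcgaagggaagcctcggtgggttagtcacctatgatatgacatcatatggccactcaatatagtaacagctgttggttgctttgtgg
For DDIT3 the windows, whose starts lie inside the annotated gene, held none of these letters. Bases more than 250 before those starts were not searched. The windows held TGACTCA, the AP-1 site bound by FOS and JUN pairs, 241 bases before the start at 57520514 on the minus strand. It is shown as the only searched element in the windows of DDIT3, and it lies in an exon of the neighbouring gene MBD6.
DDIT3, chr12:57520735-57520764: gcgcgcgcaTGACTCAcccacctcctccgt
The AP-1 letters TGANTCA are in 7.71% of windows and were also found in ATF5. The cyclic AMP response element TGACGTCA, in 1.85% of windows, was in none of the 16, and so was the heat shock element. The C/EBP letters TTGCNNAA, in 10.5% of windows, were in windows of ATF3 and ATF5, and TGACNNNGC, the antioxidant response element of NRF2, in 13.3% of windows and in the CEBPB window. No match overlapped another. A match describes these letters in this window only.

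In G2 against asynchronous cells, the comparison for the synchronisation itself, 0 of the 7 genes passed, where 2.09% of all 18959 genes tested did. A gene was called where edgeR's quasi-likelihood test gave a Benjamini-Hochberg adjusted p under 0.05. The number of members at an unadjusted p under 0.05 was also 0, where 2487 of the 18959 genes had one. DESeq2 and limma-voom also called 0 of the 7, where they called 714 and 370 genes in all. With MG132 against G2, 4 of the 7 were higher (ATF3, ATF4, DDIT3 and JDP2), against 1.01% of all genes called higher. These 4 were also the ones whose MG132 libraries all lay above every G2 library, which held for 2.07% of all genes. With bortezomib against G2, ATF3, DDIT3 and JDP2 were higher, against 0.491% of all genes, and in 5 of the 7 (these and ATF4 and CEBPG) the libraries did not overlap, against 7.66%. With α-amanitin added to MG132, ATF3, ATF4 and DDIT3 were lower than with MG132 alone, against 1.51% of all genes, and 5 of the 7 (these, CEBPB and JDP2) did not overlap, against 4.01%. Against G2, MG132 with α-amanitin left ATF3 alone called higher, where 1.04% of all genes were, and ATF3 was also the only member whose libraries all lay above G2 (7.76% of all genes). The 3 drug comparisons share the same 4 G2 libraries, and the MG132 libraries enter both the comparison with G2 and that with α-amanitin, so the members' values are given side by side and not as independent support for each other.

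**Figure D2:**
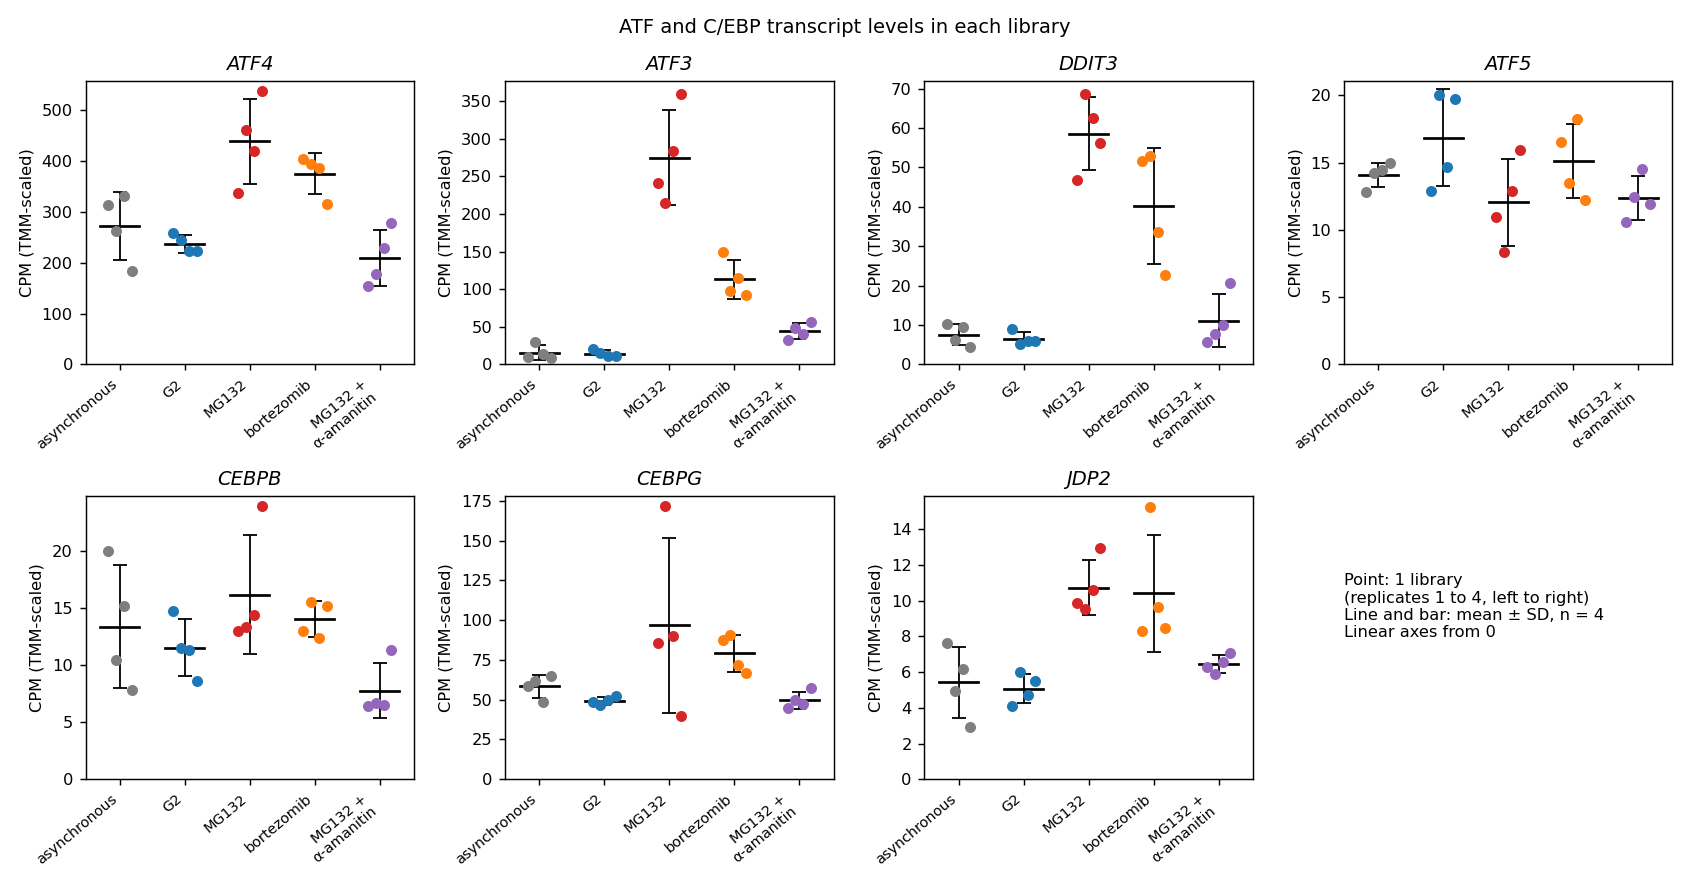
TMM-scaled CPM of the 7 genes in each of the 20 libraries on linear axes that start at 0, with the mean and SD of each group of 4. The 4 MG132 libraries of ATF3 and of DDIT3 lie above all asynchronous and G2 libraries.

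ATF4 (ENSG00000128272.14; chromosome 22, 39519695 to 39522685, plus strand, hg38), the effector of the integrated stress response, was the most abundant member. Its G2 libraries held 259, 245, 223 and 223 CPM and the asynchronous libraries 313, 263, 331 and 183. With MG132 the 4 libraries held 338, 460, 419 and 538 CPM, and with bortezomib 404, 395, 387 and 316. All 8 drug libraries lay above all 4 G2 libraries, while the asynchronous group was spread widely enough to overlap both G2 and bortezomib. ATF4 rose with MG132 by 0.89 (log2 fold change, SE 0.217, 95% interval 0.43 to 1.34; adjusted p = 0.036), from 238 ± 17.5 to 439 ± 83.6 CPM (SD, n = 4). With bortezomib the difference was 0.66 (SE 0.216; adjusted p = 0.144), which did not pass. The ATF4 libraries with MG132 and α-amanitin held 155, 177, 229 and 278 CPM, all below the 4 MG132 libraries and on both sides of the G2 libraries. ATF4 fell by 1.06 from MG132 to MG132 with α-amanitin (SE 0.218, adjusted p = 0.0092), and the difference from G2 was -0.18 (SE 0.215, adjusted p = 0.796). CPM is a share of the library, and in such bulk samples fewer cells with a transcript and less of it per cell cannot be told apart. The call with MG132 was near the threshold: it was lost with any of the 4 G2 libraries, MG132 replicate 2, 3 or 4, bortezomib replicate 1 or 3, or replicate 3 of MG132 with α-amanitin left out (log2 fold change 0.77 to 0.93, adjusted p 0.0504 to 0.109), and without the 4 GC-skewed libraries (0.66, adjusted p = 0.244). The fall with α-amanitin was lost without replicate 1 (-0.95, adjusted p = 0.0575) or replicate 2 (-0.99, adjusted p = 0.0528) of that group and without the GC-skewed libraries (-0.85, adjusted p = 0.0796). It was also lost with mitochondrial mRNA scaling (-1.19, adjusted p = 0.0855) and in a fit of only the groups compared (-1.06, adjusted p = 0.0845). Of 13 other settings, 7 kept the ATF4 call with MG132 and 10 that with α-amanitin.

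ATF3 (ENSG00000162772.17; chromosome 1, 212565334 to 212620777, plus strand), an early-response factor that acts as a repressor or activator depending on its partner, had the largest differences of the 7 genes in each drug comparison. Its counts were low before the drugs, 10.1, 30.02, 13.3 and 8.91 CPM in the asynchronous and 20.5, 14.9, 11.0 and 11.5 in the G2 libraries. With MG132 they were 242, 215, 284 and 359 CPM. With bortezomib they were 149, 98.01, 115 and 91.9 CPM. The groups formed separate steps: every MG132 library lay above every bortezomib library, and every bortezomib library above every library that had received no proteasome inhibitor. From 14.5 ± 4.37 CPM in G2 (SD, n = 4), ATF3 rose by 4.25 with MG132 (SE 0.369, a 19.0-fold change, adjusted p = 5.79e-07) and by 2.97 with bortezomib (SE 0.348, 7.85-fold, adjusted p = 7.09e-05). With MG132 and α-amanitin the libraries held 32.5, 49.1, 40.9 and 56.2 CPM, below all bortezomib and above all G2 and asynchronous libraries. ATF3 fell by 2.62 from MG132 to MG132 with α-amanitin (SE 0.342, adjusted p = 0.000103), and against G2 it was still higher by 1.63 (SE 0.332, 3.09-fold, adjusted p = 0.00785). Of the rise of 260.5 CPM with MG132, 11.6% was present with α-amanitin. The call against G2 with α-amanitin was lost when the libraries were scaled by mitochondrial mRNAs (1.22, adjusted p = 0.1).

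DDIT3 (ENSG00000175197.12; chromosome 12, 57516588 to 57521737, minus strand) encodes CHOP, which binds DNA as a dimer with C/EBP partners. The asynchronous libraries held 10.2, 6.12, 9.54 and 4.47 CPM and the G2 libraries 9.08, 5.22, 6.04 and 5.93. With MG132 they held 46.8, 68.7, 62.5 and 56.3 CPM, and with bortezomib 51.7, 52.9, 33.6 and 22.8. The inhibitor libraries were all above those without, and bortezomib replicates 3 and 4 were the lower pair of their group, below every MG132 library. DDIT3 rose by 3.16 with MG132 (SE 0.38, 8.93-fold, adjusted p = 4.77e-05) and by 2.62 with bortezomib (SE 0.372, 6.13-fold, adjusted p = 0.000793). With MG132 and α-amanitin the libraries held 5.82, 7.86, 10.0 and 20.8 CPM, of which the first 3 lay among the libraries without an inhibitor and replicate 4 above them. DDIT3 fell by 2.40 against MG132 alone (SE 0.367, adjusted p = 0.000586), and 8.75% of its rise of 52 CPM was present with α-amanitin. Its difference from G2 in that group was 0.76 (SE 0.355, adjusted p = 0.328). Both values rest on replicate 4: without it 2.57% of the rise was present and the difference was 0.27 (adjusted p = 0.775).

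Reads of DDIT3 can be shared with its neighbours, since neither the counting tool nor its strand setting is given in the sources used here. Of its exon bases, 355 (27.2%) lie on the opposite strand of an exon of MARS1, the methionyl-tRNA synthetase gene, and 105 (8.0%) are shared on the same strand with the gene model ENSG00000285133. MARS1 itself was far more abundant, at 159 ± 23.0 CPM in G2 and 216 ± 55.4 with MG132 (SD, n = 4), and its difference of 0.44 did not pass (SE 0.214, adjusted p = 0.435). ENSG00000285133 rose with MG132 by 3.08 (SE 0.345, adjusted p = 2.15e-05), to 6.51 ± 1.20 CPM from 0.773 ± 0.137, so the share of DDIT3 reads counted there is uncertain.

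ATF5 (ENSG00000169136.11; chromosome 19, 49928702 to 49933935, plus strand), which like ATF4 is under translational control and is tied to the mitochondrial stress response, was called in no comparison. It held 12.8, 14.2, 14.4 and 15.0 CPM in the asynchronous, 12.9, 20.1, 14.7 and 19.8 in the G2, and 10.9, 8.38, 12.9 and 16.0 in the MG132 libraries. The bortezomib libraries held 16.5, 13.5, 18.3 and 12.3 CPM and those with MG132 and α-amanitin 10.6, 12.4, 14.5 and 11.9. All 5 groups overlapped. ATF5 was the only member with a lower mean in both inhibitor groups than in G2, by -0.49 with MG132 (SE 0.205, 95% interval -0.91 to -0.06; adjusted p = 0.321) and -0.16 with bortezomib (SE 0.204, adjusted p = 0.721). The difference with α-amanitin added was 0.04 (95% interval -0.39 to 0.46). On the opposite strand NUP62 covers 626 bases (21.2%) of its exons, and NUP62 was not called in these comparisons either.

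CEBPG (ENSG00000153879.9; chromosome 19, 33373330 to 33382686, plus strand) lacks a transactivation domain and serves as a dimer partner of ATF4. Its G2 libraries lay close together at 48.5, 46.5, 49.5 and 52.5 CPM, and the asynchronous ones at 58.9, 61.5, 48.4 and 64.8. The MG132 libraries were far apart, at 85.9, 172, 90.0 and 39.4 CPM, with replicate 4 below all of G2 and replicate 2 the highest of all 20. With bortezomib CEBPG held 87.6, 90.7, 71.9 and 67.0 CPM, all above both groups without an inhibitor, and with MG132 and α-amanitin 44.5, 49.6, 47.1 and 57.3. The differences from G2 did not pass, at 0.97 with MG132 (SE 0.281, adjusted p = 0.0855) and 0.69 with bortezomib (SE 0.28, adjusted p = 0.256), and that from MG132 to MG132 with α-amanitin was -0.96 (SE 0.281, adjusted p = 0.0884). MG132 replicates 2 and 4 were the libraries with the lowest and the highest GC slope, and CEBPG, with 43.9% GC in its longest transcript, is the member with the least GC. ATF3, next in GC at 46.7%, had the opposite order, with replicate 4 the highest MG132 library (359 CPM) and replicate 2 the lowest (215 CPM). The part of the GC slope in the spread of CEBPG was not tested. Without MG132 replicate 4 the difference was called in both MG132 comparisons (1.23 against G2 and -1.23 for MG132 with α-amanitin against MG132, adjusted p = 0.00222 for each). Without MG132 replicate 2 the same differences were 0.55 (adjusted p = 0.329) and -0.54 (adjusted p = 0.375). DESeq2 called CEBPG in both comparisons (1.02 with MG132, adjusted p = 0.0177, and lower with α-amanitin, adjusted p = 0.0187). Without the 4 GC-skewed libraries CEBPG was called with MG132 (0.78, adjusted p = 0.0178), with bortezomib (0.63, adjusted p = 0.0252) and with α-amanitin (-0.82, adjusted p = 0.00671), and in a fit corrected for GC and length with MG132 (0.91, adjusted p = 0.00664) and with α-amanitin (-0.97, adjusted p = 0.00402). The fit without these libraries and the corrected fit were chosen after seeing the data.

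CEBPB (ENSG00000172216.6; chromosome 20, 50190734 to 50192689, plus strand), a C/EBP activator of inflammatory and stress genes, has 66.2% GC, the most of the 7. It held 20.0, 10.5, 15.2 and 7.87 CPM in the asynchronous and 14.7, 11.5, 11.4 and 8.63 in the G2 libraries. With MG132 it held 13.0, 13.4, 14.4 and 24.0 CPM and with bortezomib 13.0, 15.5, 12.4 and 15.2. The groups without an inhibitor, MG132 and bortezomib all overlapped one another, and MG132 replicate 4, with the highest GC slope, was the highest of all 20 libraries. The part of the GC slope in that value was not tested. CEBPB differed from G2 by 0.49 with MG132 (SE 0.278, adjusted p = 0.563) and 0.28 with bortezomib (SE 0.278, adjusted p = 0.634). With MG132 and α-amanitin the libraries held 6.42, 6.70, 6.55 and 11.4 CPM, all below every MG132 library, and the difference of -1.06 (SE 0.281, 95% interval -1.65 to -0.47; adjusted p = 0.0536) narrowly missed the threshold. It passed with asynchronous replicate 1 (adjusted p = 0.0333) or 4 (0.0342), MG132 replicate 1 (0.0498) or replicate 4 of MG132 with α-amanitin (0.0213) left out, at log2 fold changes of -1.06 to -1.31, and in 5 of 13 other settings, among them DESeq2 (-1.11, adjusted p = 0.00991). Without MG132 replicate 4 it was -0.81 (adjusted p = 0.112), and without the 4 GC-skewed libraries -0.82 (adjusted p = 0.229). With the correction for GC and length, chosen after seeing the data, CEBPB was called with MG132 (0.79, adjusted p = 0.0082) and bortezomib (0.67, adjusted p = 0.0352) as well. Without the 4 GC-skewed libraries, likewise chosen later, it was not called with either (0.22, adjusted p = 0.833, and 0.25, adjusted p = 0.672).

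**Figure D3:**
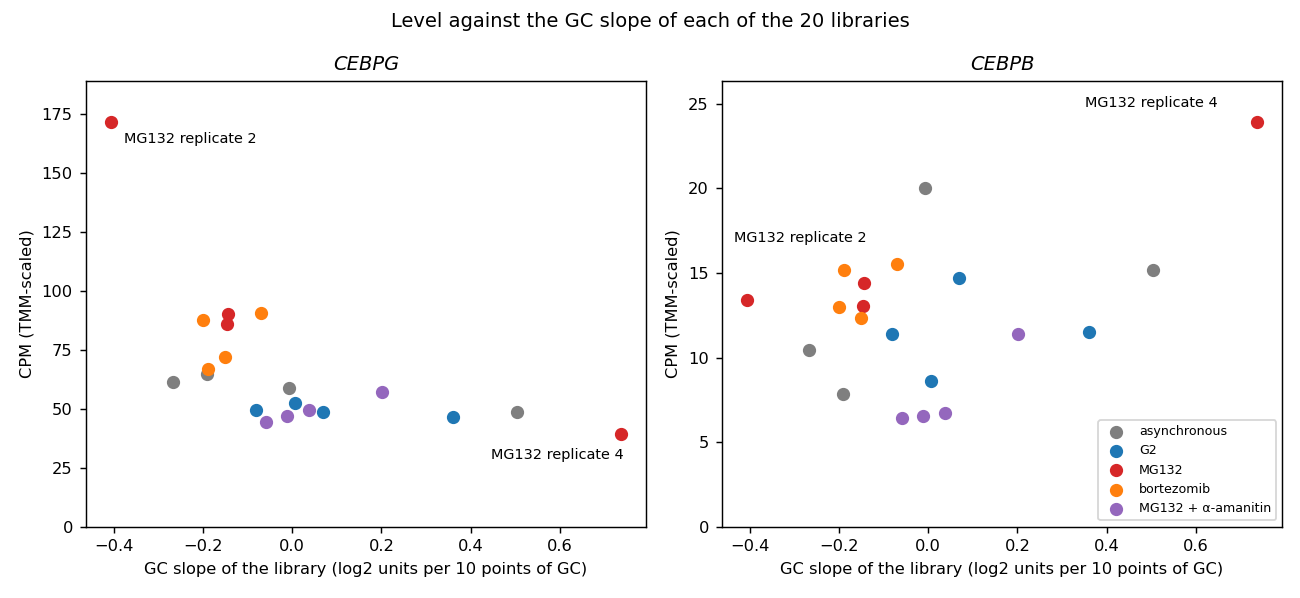
TMM-scaled CPM of CEBPG and CEBPB against the GC slope of each of the 20 libraries, the log2 units by which gene levels rose per 10 points of GC content. MG132 replicates 2 and 4 lie at the ends of the slope axis, at 172 and 39.4 CPM for CEBPG and 13.4 and 24.0 CPM for CEBPB.

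JDP2 (ENSG00000140044.13; chromosome 14, 75427716 to 75474111, plus strand), a repressor that pairs with JUN proteins at AP-1 and cyclic AMP elements, was the least abundant member, with 90 to 448 counts per library. It held 7.66, 4.93, 6.20 and 2.94 CPM in the asynchronous and 4.12, 6.00, 4.73 and 5.48 in the G2 libraries. With MG132 it held 9.89, 9.53, 10.6 and 12.9 CPM, and with bortezomib 8.29, 15.3, 9.65 and 8.48. All 8 inhibitor libraries lay above the 8 without an inhibitor, and bortezomib replicate 2 was the highest. JDP2 rose by 1.08 with MG132 (SE 0.251, 2.11-fold, adjusted p = 0.0267) and by 1.04 with bortezomib (SE 0.251, 2.05-fold, adjusted p = 0.0476). With MG132 and α-amanitin the 4 libraries held 6.32, 5.88, 6.58 and 7.10 CPM, below all of MG132 and overlapping G2, with a difference from MG132 of -0.73 (SE 0.249, adjusted p = 0.17). Both calls were near the threshold. That with MG132 was lost without G2 replicate 1 (0.99, adjusted p = 0.0972), 3 (1.04, 0.0755) or 4 (1.12, 0.0643), MG132 replicate 1 (1.12, 0.0537) or 3 (1.08, 0.0849), and without the 4 GC-skewed libraries (1.07, 0.129). That with bortezomib was lost with any of 15 of the 20 libraries left out, namely all but asynchronous replicates 1, 3 and 4 and MG132 replicates 2 and 4, at an adjusted p of 0.0539 to 0.164; without bortezomib replicate 2 it was 0.79 (adjusted p = 0.161). Of 13 other settings 8 kept the call with MG132 and only 3 that with bortezomib (DESeq2, genes without repeats and the correction for GC and length). Without the 4 GC-skewed libraries the bortezomib difference was 1.098 (adjusted p = 0.0582). JDP2-AS1 overlaps 26 of its exon bases on the opposite strand.

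**Figure D4:**
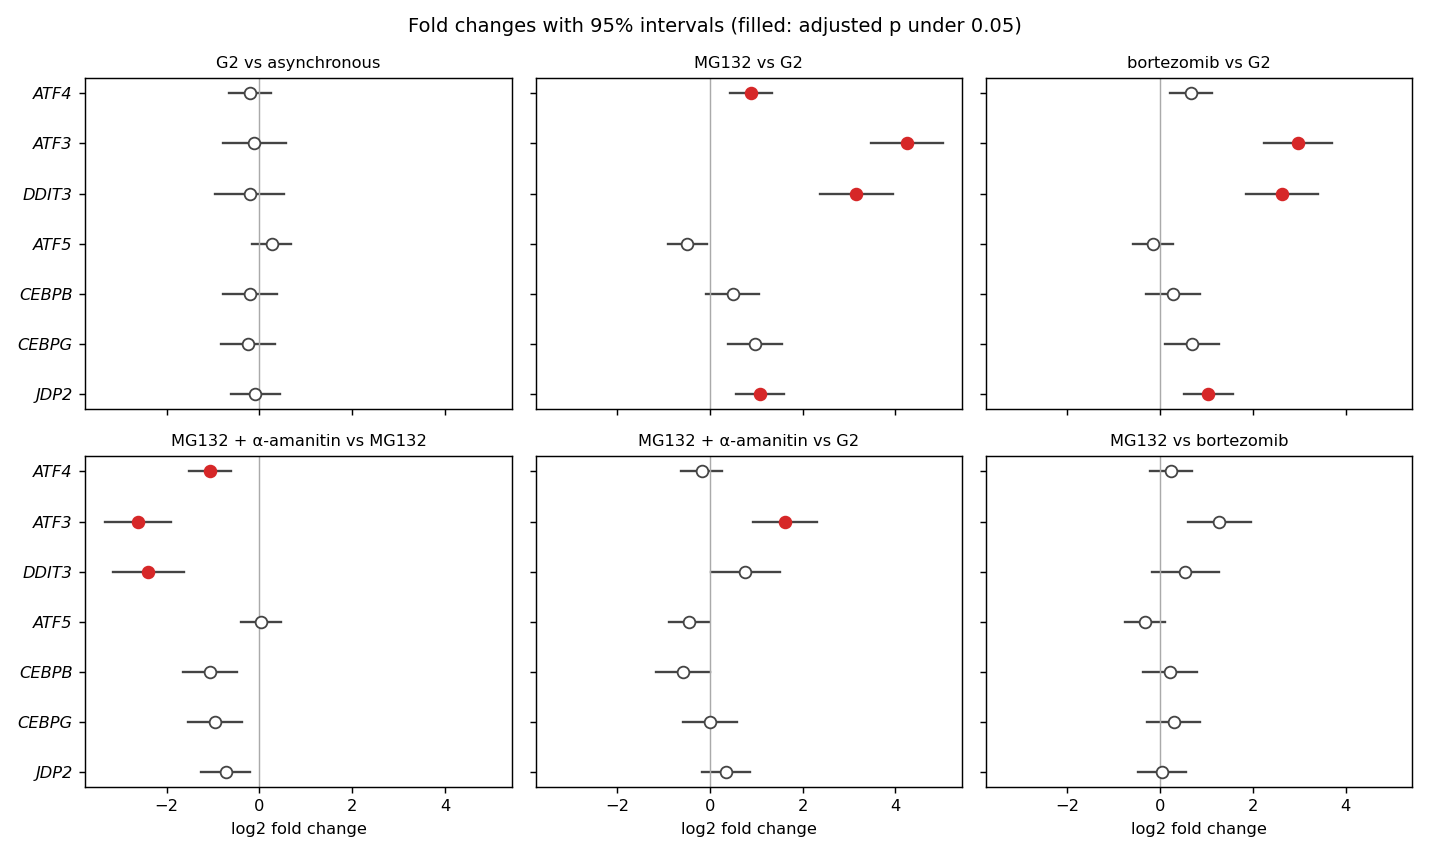
Log2 fold changes of the 7 genes in the 6 comparisons, with 95% intervals from edgeR; filled points have an adjusted p under 0.05. With MG132 against G2, 4 of the 7 are filled, and in G2 against asynchronous and MG132 against bortezomib 0 are.

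MG132 and bortezomib were also compared directly, at the same 3 h and at doses of 20 µM and 100 nM. Of the 7 genes 0 passed, where 0.0369% of all genes did. An unadjusted p under 0.05 was found for 1 (ATF3), and for 768 of the 18959 genes tested. DESeq2 and limma-voom also called 0 of the 7, where they called 19 and 7 genes in all. ATF3 was 275 ± 63.0 CPM with MG132 and 114 ± 25.8 with bortezomib (SD, n = 4), a difference of 1.28 (95% interval 0.59 to 1.96; adjusted p = 0.588, and 0.0672 by DESeq2). It was the only member without overlap between these groups, which held for 1.74% of all genes. For DDIT3 the difference was 0.54 with a 95% interval of -0.19 to 1.27, and for ATF4 0.23 with an interval of -0.22 to 0.68. CEBPG differed by 0.29 (-0.29 to 0.87), CEBPB by 0.21 (-0.37 to 0.79), ATF5 by -0.33 (-0.76 to 0.10) and JDP2 by 0.04 (-0.47 to 0.56). These intervals do not show that the inhibitors act alike, and the doses differ.

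In G2 against asynchronous cells the 7 log2 fold changes lay between -0.25 (CEBPG) and 0.26 (ATF5), with SEs of 0.204 to 0.356. The widest intervals were those of DDIT3 (-0.95 to 0.54) and ATF3 (-0.79 to 0.57). The sum of the fibroblast markers was higher in all G2 than in all asynchronous libraries, and its part in these values was not tested.

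The letter that each sample code carries has no stated meaning and is unevenly spread over the groups. With the letter as a block, ATF3 differed from G2 by 4.33 with MG132 (adjusted p = 2.8e-05) and 3.46 with bortezomib (adjusted p = 0.00268), and DDIT3 by 3.36 (adjusted p = 0.000119) and 3.13 (adjusted p = 0.00419). ATF4 (1.01, adjusted p = 0.0314) and JDP2 (1.12, adjusted p = 0.0479) with MG132 were also called in that fit, and JDP2 with bortezomib was not (1.13, adjusted p = 0.495). Bortezomib replicates 2 and 4 are the only libraries with their letters.

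Genes taken as targets of these factors were counted from lists that were drawn up with earlier results of these data known, so the direction of a list is not independent evidence. Of 40 tested genes for amino acid supply and related ATF4 targets, 13 were higher and 0 lower with MG132 against G2 (median log2 fold change 0.61, against -0.03 over all genes), and 7 and 0 with bortezomib (0.51 against -0.01). Over all genes 1.01% were called higher with MG132 and 0.491% with bortezomib. SESN2, which restrains the growth kinase complex mTORC1, rose from 11.6 to 133 CPM with MG132 (3.52, SE 0.258, adjusted p = 6.12e-08). ASNS, asparagine synthetase and a classic ATF4 target, rose by 1.25 with MG132 (SE 0.194, adjusted p = 0.00106) and by 0.82 with bortezomib (SE 0.193, adjusted p = 0.0387). DDIT4, another brake on mTORC1, rose by 4.05 with MG132 (SE 0.534, adjusted p = 0.000152). With α-amanitin added to MG132, 0 of the 40 were higher and 8 lower (median -0.46 against 0.02), where 1.51% of all genes were lower. DDIT4 differed by -4.78 (SE 0.553, adjusted p = 2.35e-05) and stood at 11.3 CPM. The count was 8 with MG132 without G2 replicate 4, 4 with bortezomib without G2 replicate 1, G2 replicate 2 or bortezomib replicate 2, and 4 with α-amanitin without replicate 1 of that group. Of 33 list genes with a RefSeq window 12 hold TGATGNAA, against 4.46% of all genes; ATF4 targets were in part recognised in the field by this element.

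Of 9 genes listed here as CHOP targets 5 were higher with MG132 (CHAC1, PPP1R15A, HERPUD1, TNFRSF10B and TRIB3, list median 1.16), against 1.01% of all genes. With bortezomib 4 were higher (all of these but TRIB3, median 0.86), against 0.491%. Whether CHOP itself drove these genes was not tested. CHAC1, which degrades glutathione, rose from 2.07 to 88.7 CPM with MG132 (5.42, SE 0.354, adjusted p = 1.75e-08) and to 45.0 CPM with bortezomib (4.44, SE 0.339, adjusted p = 3.95e-07). All 5 were lower when α-amanitin was added (list median -1.07), against 1.51% of all genes, CHAC1 by -3.64 (SE 0.322, adjusted p = 1.05e-06). CHAC1 was the only one of the 9 called above G2 in that group (1.78, SE 0.309, adjusted p = 0.00251), where 1.04% of all genes were. Without the 4 GC-skewed libraries 3 of the 9 were lower with α-amanitin.

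Upstream of ATF4, a list of 20 genes of the eIF2α pathway held the eIF2α kinases, the eIF2 and eIF2B subunits and the phosphatase regulators. It also held genes outside these classes, such as ERN1. Of the 20, 1 was called higher with MG132 (1.01% of all genes were) and the same gene with bortezomib (0.491% of all genes were). It was PPP1R15A, also among the CHOP targets, which encodes the GADD34 subunit that directs dephosphorylation of eIF2α and rose from 35.7 to 210 CPM with MG132 (2.56, SE 0.239, adjusted p = 1.4e-06). With MG132 2 were called when asynchronous replicate 1 or MG132 replicate 2 was left out. EIF2AK3, the kinase PERK, was at 14.6 CPM in G2 and 14.8 with MG132 (0.01, SE 0.388, adjusted p = 0.996). The median of the list was 0.04 with MG132 and 0.10 with bortezomib.

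**Figure D5:**
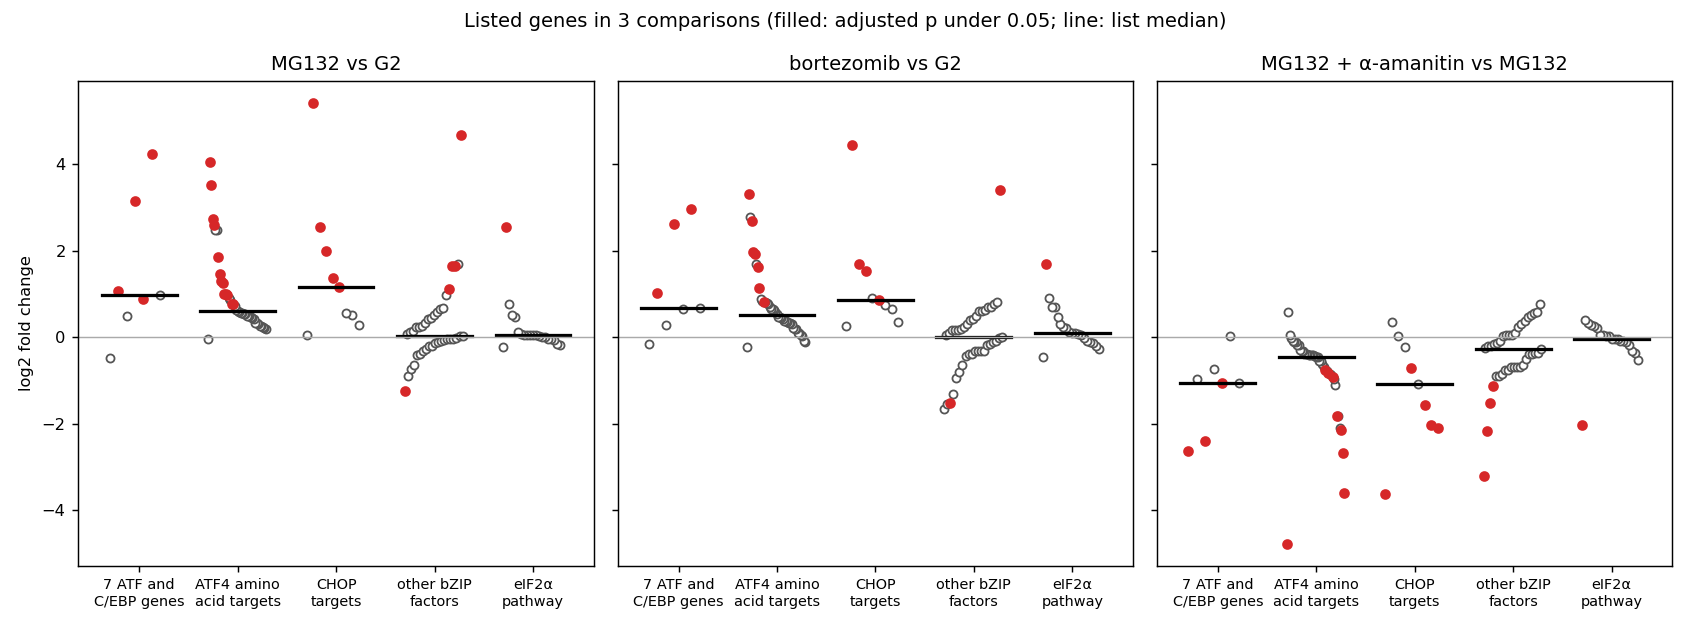
Log2 fold change of every tested gene of the 7 members and of the 4 lists in 3 comparisons, spread sideways within a list, with filled points for an adjusted p under 0.05 and a line at the list median. The medians with MG132 are 0.97 for the members, 0.61 for the ATF4 amino acid targets, 1.16 for the CHOP targets and 0.04 for both other lists.

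The genes whose pattern over the 20 libraries was most like each member were taken from 9667 protein-coding genes whose log2 CPM averaged 3 or more, by Pearson's r of log2 CPM, as a description with no test. The libraries share groups, depth and GC slope, so the r within groups is given as well. For ATF3 they were PPP1R15A (0.965, within groups 0.731), SESN2 (0.963, 0.594) and CHAC1 (0.959, 0.256). For DDIT3 they were HERPUD1 (0.961, 0.794), CHAC1 (0.958, 0.699) and DEDD2 (0.956, 0.624), and for ATF4 XBP1 (0.928, 0.874), GADD45B (0.919, 0.776) and TNFSF9 (0.913, 0.672). For JDP2 they were CHAC1 (0.880, 0.638), TSC22D3 (0.875, 0.687) and CDKN1A (0.863, 0.643). CHAC1 thus appears beside 3 of the members. CEBPG lay nearest to ELOVL5 (0.939, 0.943), RABGGTB (0.931, 0.908) and TUBE1 (0.927, 0.901). CEBPB lay nearest to ID3 (0.908, 0.853), ID1 (0.818, 0.786) and C19orf48P (0.815, 0.644), and ATF5 to MTERF4 (0.835, 0.864), MEPCE (0.800, 0.776) and KIFC1 (0.756, 0.768).

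Among the members themselves, ATF3 and DDIT3 had an r of 0.912 over the 20 libraries and 0.302 within groups. ATF4 and DDIT3 had 0.876 and 0.831, and ATF4 and CEBPB 0.820 and 0.750, so these pairs also varied together among replicates. ATF5 and CEBPG had -0.463 and -0.554. In MG132 with α-amanitin, replicate 4 was the highest of its group for ATF3, ATF4, DDIT3, CEBPB, CEBPG and JDP2, but not for ATF5. That library also had the highest GC slope of its group (0.202). The share of all genes that were highest in it was not counted, so this order is not a trait of the members.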

How the data were processed

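The data used are a single table that the authors deposited, which holds raw counts for 39918 Ensembl genes and 1174 repeat subfamilies in 20 samples, with no scaling. Per the labels' protocols, TRIzol RNA was treated with DNase and stranded total RNA libraries were made. The submitters' processing notes name FastQC, cutadapt 1.18, STAR and hg38. Not given in the sources used here are the counting tool, its strand setting and the annotation release. GENCODE release 29 (hg38) gave positions for 38661 genes, and names were found for 39900. RefSeq start-site windows are of GRCh38.p14. Samples were grouped by their labels, and 0 columns were left out.

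Genes and repeats entered 1 edgeR 4.0.16 fit in R 4.3.3 (filterByExpr, TMM, robust quasi-likelihood test) over all 20 libraries with 1 mean per group, 15 residual degrees of freedom and a biological coefficient of variation of 33.3%. P-values were adjusted by Benjamini-Hochberg over 18959 genes, and all adjusted p-values are from edgeR unless DESeq2 1.42.0 or limma-voom (limma 3.58.1) is named. The script was tested on simulated data. CPM use TMM-adjusted library sizes. GC slopes were fitted per library, with GC content known for 98.6% of tested genes. Chi-square tests of the counts of 30 replicate pairs gave 8.19 to 448.97 per degree of freedom, so none was counted as a duplicate.

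The members, the lists (ATF4 amino acid targets, CHOP targets, other bZIP factors, eIF2α pathway, overlapping neighbours, epithelial, fibroblast and leukocyte markers) and the rules for naming genes were chosen with earlier results of these data known. Named genes are the 7 members, the 3 most correlated genes of each, and up to 4 members of a list with the smallest p in a comparison. EIF2AK3, ASNS, the fifth CHOP target and the members' neighbours fall outside this rule and were chosen after their values were seen. Alternatives were scaling by RLE, by total library size and by the 13 mitochondrial mRNAs; no filter and a stricter one (CPM of 1 or more in 4 or more samples); DESeq2 and limma-voom; only the groups compared; genes without repeats; blocks for replicate number and code letter; a 2-fold minimum; and each library left out in turn. A fit corrected for GC and length and one without the 4 GC-skewed libraries were added after seeing the data.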

Additional observations from a re-analysis of the deposited data

Results flagged for a closer look

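CEBPB in MG132 replicate 4 was at 24.0 CPM, while the other 3 libraries of the group held 13.0 to 14.4, and in replicate 4 of MG132 with α-amanitin it was at 11.4 CPM, while the other 3 held 6.42 to 6.70. In both groups the gap to the nearest library was a larger share of the group's range (0.835 and 0.927) than Dixon's test allows at the 95% level for 4 samples. These were 2 of 35 groups of 4 examined, and chance flags about 1 group in 20. The GC slope of these libraries was 0.737 and 0.202, the highest of each group; its part in the values was not tested.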

How the results depend on the processing

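No log2 fold change of a member that was called changed sign under any alternative. ATF3 and DDIT3 were called under all 13 alternatives (1 library left out aside) with MG132 and bortezomib against G2 and with α-amanitin against MG132. Of the 4 members called with MG132 against G2, 2 were called with total library size, 2 with mitochondrial mRNA scaling, 2 in a fit of only the groups compared and 2 with a replicate block. Over all genes 144, 76, 81 and 141 were higher in these settings, in that order, against 191 in the main fit. When 1 library was left out, 2 to 4 members were called with MG132 against G2. The numbers do not pair the samples: the correlation of same-numbered samples ran from -0.61 to 0.615, over 0.1 in 6 of 24, and 5 of 24 correlated best with their own number. With the replicate block 258 genes were called with MG132 against G2 in place of 395, and 120 in place of 218 with bortezomib. With α-amanitin against MG132, 5 members were lower by DESeq2 and 6 with the GC and length offset. Over all genes 493 and 626 were lower in these fits, against 286 in the main fit. With bortezomib against G2, 5 members were higher with that offset, where 227 of all genes were, against 93 in the main fit. With α-amanitin against G2, 0 members were called with mitochondrial scaling, where 84 genes were higher and 899 lower. When 1 library was left out, 2 to 3 members were called with bortezomib and 2 to 4 with α-amanitin against MG132. All genes called moved by over 1.5 times in many settings: with MG132 against G2 from 395 to between 86 (only the groups compared) and 770 (offset), with bortezomib from 218 to between 30 (code letter block) and 621 (DESeq2), with α-amanitin against MG132 from 415 to between 189 and 829, and with α-amanitin against G2 from 636 to between 224 and 1026. In G2 against asynchronous they ran from 397 to between 8 and 994, and in MG132 against bortezomib from 7 to between 0 and 19. Leaving out 1 library gave 203 to 673, 88 to 408, 186 to 547, 297 to 815, 143 to 577 and 1 to 10 in the same order. Of the calls with MG132 against G2, 191 were higher and 204 lower; with RLE 198 and 132, with total library size 144 and 333, and with mitochondrial scaling 76 and 132. With bortezomib 93 and 125 became 74 and 171 with total library size. With α-amanitin against MG132, 129 and 286 became 152 and 215 with total library size and 44 and 240 with mitochondrial scaling, and against G2 197 and 439 became 84 and 899 with the latter. Mitochondrial scaling gave 5 ATF4 targets in place of 13 and 3 CHOP targets in place of 5 with MG132, and 4 in place of 7 and 2 in place of 4 with bortezomib, while 21 ATF4 targets were called with MG132 in the fit corrected for GC and length. Total library size shifted the median of all genes by -0.12 with MG132 and 0.17 with α-amanitin against MG132, and mitochondrial scaling by -0.26 with MG132, -0.21 with bortezomib, -0.15 with α-amanitin against MG132 and -0.41 against G2. Of the members' values under other settings, 25 lost and 16 gained a call, and 505 stayed as they were, called or not called. With 1 library left out 32 lost and 6 gained a call, and 802 stayed as they were. Most of the values that stayed had no call to lose, since the main fit called 0 to 4 of the 7 members in a comparison.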

Other observations

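Of 43 other bZIP genes 40 were in the table and 39 were tested. With MG132 against G2, 4 were higher and 1 lower, where 191 and 204 of the 18959 genes tested were. JUN, the core AP-1 subunit, rose by 4.67 on the log2 scale (SE 0.419, adjusted p = 8.51e-07), to 166 CPM from 6.49, MAFF, a small MAF protein, by 1.66 (SE 0.299, adjusted p = 0.00424), FOS by 1.65 (SE 0.364, adjusted p = 0.0183) and XBP1, a factor of the unfolded protein response, by 1.11 (SE 0.267, adjusted p = 0.0324). JUNB fell by 1.24 (SE 0.291, adjusted p = 0.0276). The median over the 39 was 0.04, against 0.97 over the 7 members and -0.03 over all genes. With bortezomib JUN rose by 3.40 (SE 0.396, adjusted p = 6.82e-05) and JUNB fell by 1.51 (SE 0.293, adjusted p = 0.0109), where 93 of the 18959 genes were higher and 125 lower. The count of 5 with MG132 was 2 without G2 replicate 2 and 3 without G2 replicate 4 or MG132 replicate 3, and the count of 2 with bortezomib was 1 without G2 replicate 1, bortezomib replicate 1 or bortezomib replicate 4.

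With α-amanitin added to MG132, 4 of the 39 were lower, against 1.51% of all genes: JUN by -3.22 (SE 0.391, adjusted p = 4.34e-05), FOS by -2.17 (SE 0.371, adjusted p = 0.00191), XBP1 by -1.52 (SE 0.27, adjusted p = 0.00277) and JUND by -1.13 (SE 0.228, adjusted p = 0.00853). Against G2, JUN was higher in MG132 with α-amanitin by 1.45 (SE 0.37, adjusted p = 0.0318), and JUNB lower by -1.92 (SE 0.297, adjusted p = 0.00088), where 197 of the 18959 genes were higher and 439 lower. In that comparison 1 of the 39 was called without G2 replicate 1 or 2 or without replicate 2, 3 or 4 of MG132 with α-amanitin, and 5 without MG132 replicate 4.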
